A study of Homo sapiens with 9 samples.

Results

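The hemoglobin and red cell genes HBB, HBA1, HBA2, HBD, HBG1, HBG2, ALAS2, AHSP, CA1 and SLC4A1 were followed in neuroblastoma cells that had been spiked into bone marrow and recovered from it. All probe sets of these 10 genes on the array were taken, including those annotated with 2 of the symbols, which gave 22 of the 49293 probe sets that were not controls and 8 of 19255 symbol entries (a symbol entry is a gene, or genes that share probe sets). The genes were chosen because HBB was lower in both thawed conditions than in the fresh one, so their differences from the fresh arrays are given as a description. Standard errors and counts by a p criterion stand beside these differences, but are not read as a test of them. In 3 biological replicates, cells of LAN-1, an established neuroblastoma line, were added to bone marrow free of tumor, mononuclear cells were isolated on a density gradient, and LAN-1 cells were recovered with magnetic beads directed at GD2, a ganglioside of their surface. The 3 conditions, with 3 arrays each, were compared. In the condition frozen with gradient, the mononuclear cells were frozen in DMSO at low temperature for a week, thawed, passed over an additional density gradient and enriched. The condition frozen without gradient had the same freezing and thawing but went directly to enrichment, and the fresh condition was enriched immediately. All 3 conditions shared the first gradient and the GD2 enrichment. The deposited label of an array gave its condition, but which thawed set had the additional gradient is not settled. The arrays labelled without gradient differed from the fresh arrays in more probe sets than those labelled with gradient, whereas the study's text gives the opposite order. With the most variable probe set per symbol entry, 481 entries without gradient and 22 with gradient had an unadjusted limma p under 0.05 and a log2 difference beyond 1. The study's counts, at a p under 0.05 and the same fold limit, are of much the same sizes in the opposite order. The labels of the thawed conditions may therefore be exchanged in one of these sources. If the deposited labels are the exchanged ones, all values given here with and without gradient change places and each difference between the thawed conditions changes sign. The model is limited to 1 cell line added to marrow, and no array of LAN-1 cells that had not been in marrow, or of marrow without LAN-1 cells, was analysed here.

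Hemoglobin carries oxygen in red cells and is built from alpha-type and beta-type globin chains around heme. HBB and HBA1 with HBA2 encode the chains of the main adult hemoglobin, HBD the beta-type chain of a minor adult form, and HBG1 with HBG2 those of the fetal form. AHSP is a chaperone that binds free alpha chains, ALAS2 the erythroid enzyme of the first step of heme synthesis, CA1 a carbonic anhydrase of red cells, and SLC4A1 the anion exchanger band 3 of the red cell membrane. In marrow these RNAs are made by erythroid precursors and persist into reticulocytes, and a density gradient is designed to leave most red cells in the pellet. Neuroblastoma arises in the sympathetic nervous system. In such bulk samples, fewer cells of a type and less RNA per cell cannot be told apart.

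HBB, HBD, HBG1 and HBG2 belong to the beta-globin cluster on chromosome 11, HBA1 and HBA2 are neighbours on chromosome 16, which also holds AHSP, and SLC4A1 lies on chromosome 17, ALAS2 on X and CA1 on 8 (RefSeq, GRCh38.p14). RefSeq promoter sequences were matched for 2 of the 10 genes, HBD and ALAS2. They are shown as the members with a matched promoter, a beta-type globin gene and a gene of heme synthesis. Each is the 250 bases before the annotated start, 5′ to 3′ on the minus strand, at chr11:5234484-5234733 for HBD and chrX:55030978-55031227 for ALAS2. Capitals mark, on either strand, the GATA words (GATA with A or T before it and A or G after it), CCAAT and CACCC.
HBD: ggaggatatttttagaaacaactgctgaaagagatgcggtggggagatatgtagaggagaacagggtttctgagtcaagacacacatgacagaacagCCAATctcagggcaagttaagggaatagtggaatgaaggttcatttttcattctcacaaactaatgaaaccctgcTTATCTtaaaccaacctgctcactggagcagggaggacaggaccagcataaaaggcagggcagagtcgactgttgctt
ALAS2: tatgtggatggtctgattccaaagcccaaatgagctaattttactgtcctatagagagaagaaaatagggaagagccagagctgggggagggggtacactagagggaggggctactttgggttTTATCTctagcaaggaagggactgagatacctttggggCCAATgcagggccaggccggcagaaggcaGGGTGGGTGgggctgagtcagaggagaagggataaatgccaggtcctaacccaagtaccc
The HBD promoter held a CCAAT word from 153 to 149 bases before the start and a GATA word, read as TTATCT, from 78 to 73 bases before it. The ALAS2 promoter held a GATA word, also read as TTATCT, from 127 to 122 bases, a CCAAT word from 89 to 85 bases, and 2 overlapping CACCC words, read as GGGTG, from 60 to 52 bases before the start. A further search for ATAAA on either strand found it from 31 to 27 bases before the HBD start. For ALAS2 it lay from 29 to 25 bases, and on the opposite strand from 128 to 124 bases, where it overlaps the GATA word. Of 35116 promoters of this length, 22.33% held a GATA word, 32.01% CCAAT, 54.71% CACCC and 32.68% ATAAA, so these matches are common and only describe the letters.

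Replicate 1 frozen with gradient stood apart from the other arrays. Its median correlation with the other 8 arrays was 0.929, against 0.966 to 0.990 for the others. The GAPDH control signal at the 3′ end minus that at the 5′ end was 6.73 on this array. This difference depends on how far labelling reached toward the 5′ ends of transcripts and on how intact the RNA was, without telling them apart. On the log2 scale it ran from 2.07 to 6.73 with gradient, from 0.94 to 1.45 without gradient and from 1.56 to 4.92 fresh. All arrays without gradient lay below all others, so as a covariate it cannot be fully told apart from that condition.

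Among the members, HBB differed most from the fresh arrays. Values are RMA signals, log2 intensities that the authors normalized across arrays. The most variable HBB probe set, 11715347_s_at, had 9.33, 9.97 and 10.10 in the arrays frozen with gradient, 5.59, 9.33 and 8.83 in those frozen without gradient, and 10.76, 12.18 and 12.72 in the fresh arrays. All 6 thawed arrays lay below all 3 fresh arrays, and in each condition replicate 1 was the lowest. Its means were 9.80 ± 0.41 with gradient, 7.91 ± 2.03 without gradient and 11.88 ± 1.01 fresh (SD, n = 3 each), in the order fresh, with gradient, without gradient from highest to lowest. Its standard deviation over the 9 arrays was the 9th largest of all 49293 probe sets. Relative to the fresh arrays the signal was lower by a factor of 4.25 with gradient and of 15.7 without gradient, given as a description because the gene was chosen on these differences.

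The other HBB probe sets had the same order of means. Probe set 11753712_x_at had 6.33, 6.70 and 7.04 with gradient, 4.95, 6.75 and 6.75 without gradient, and 7.52, 9.04 and 9.96 fresh. Probe set 11715348_x_at had 7.87, 8.17 and 8.29 with gradient, 6.81, 8.20 and 8.01 without gradient, and 8.76, 9.65 and 10.80 fresh. For both, too, every thawed array was below every fresh array, whereas the 2 thawed conditions overlapped. In the probe set names of this maker, the ending _x_at marks probes that can match similar sequences and _s_at probes shared between transcripts, so part of such a signal could come from a related globin. Over the 9 arrays, pairs of the 3 HBB probe sets correlated with r from 0.931 to 0.993, and from 0.875 to 0.979 after each condition's mean was removed.

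**Figure D1:**
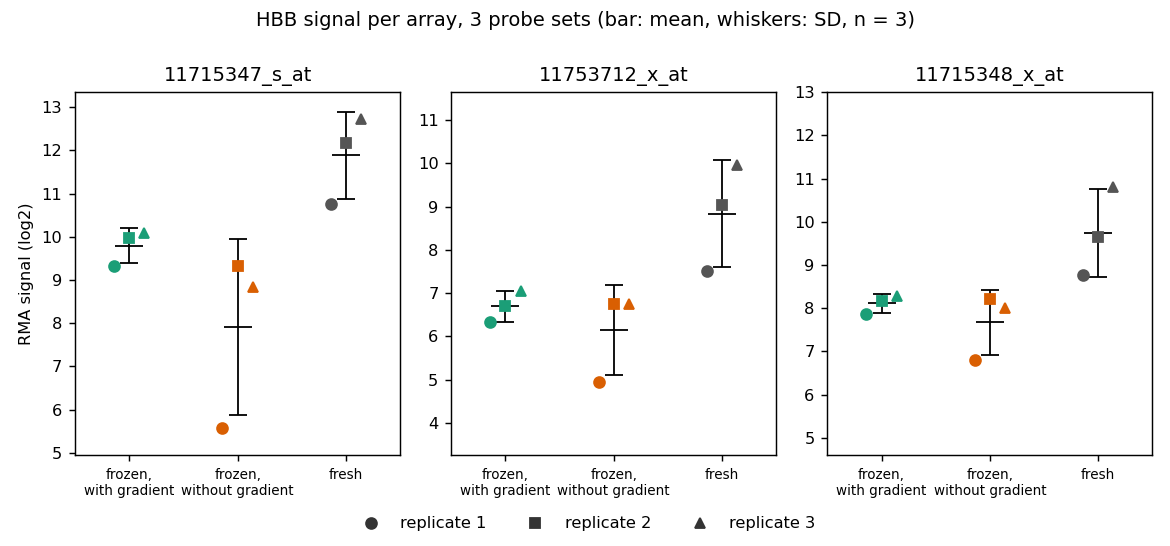
RMA signal (log2) of the 3 HBB probe sets on each of the 9 arrays, by condition, with a symbol per replicate, the mean as a bar and the SD as whiskers (n = 3). All 6 thawed arrays lie below the 3 fresh arrays in each panel, and replicate 1 frozen without gradient is lowest, at 5.59 for 11715347_s_at.

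As log2 differences with standard errors from the model over all probe sets, 11715347_s_at differed from the fresh arrays by -2.09 (0.91) with gradient and by -3.97 (0.91) without gradient. Probe set 11753712_x_at differed by -2.15 (0.65) with gradient and -2.70 (0.65) without, and 11715348_x_at by -1.62 (0.51) with gradient and -2.06 (0.51) without. The HBB probe sets were 3 of the 4 most negative differences of all 49293 probe sets with gradient (ranks 1, 2 and 4), and held ranks 1, 5 and 8 without gradient. These ranks describe the choice of the gene. Both thawed conditions were set against the same fresh arrays, so the 2 comparisons are not independent of each other.

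Replicate 1 frozen without gradient set much of the size of the difference for 11715347_s_at. Without that array the difference from fresh was -2.81 for the condition without gradient, and over all 9 single omissions it ran from -4.68 to -2.81. With gradient it ran from -2.65 to -1.67 over the same omissions. With the GAPDH 3′ minus 5′ difference of each array as a covariate, it was -1.94 with gradient and -4.55 without gradient.

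HBD and the alpha-globin genes were high on some fresh arrays and not on others. HBD probe set 11725439_at had 4.27, 4.16 and 4.27 with gradient, 3.50, 4.04 and 4.01 without gradient, and 4.19, 6.07 and 5.50 fresh. The fresh replicates 2 and 3 stood above all thawed arrays, and fresh replicate 1 lay among those with gradient. Its difference from fresh was -1.02 (SE 0.41) with gradient and -1.41 (SE 0.41) without gradient. The other HBD probe set, 11725438_a_at, had 5.58, 4.99 and 4.997 with gradient, 4.15, 4.64 and 4.34 without gradient, and 5.36, 4.79 and 4.84 fresh, so that its with-gradient mean was 0.19 above fresh (SE 0.22) and its without-gradient mean 0.62 below it. The 2 HBD probe sets thus disagreed in direction for the condition with gradient.

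One probe set, 11754267_x_at, covered HBA1 and HBA2, whose coding sequences are nearly alike, so it does not tell them apart. It had 5.87, 5.30 and 5.64 with gradient, 5.20, 5.36 and 5.72 without gradient, and 5.50, 6.50 and 8.19 fresh. Here 2 of the 3 fresh arrays stood above all thawed arrays, with fresh replicate 3 highest. The differences from fresh were -1.13 with gradient and -1.30 without gradient (SE 0.56 each), and without fresh replicate 3 they were -0.40 and -0.57 in the same order.

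The probe sets of the fetal globin genes differed among themselves. The most variable of the 5 probe sets shared by HBG1 and HBG2, 11755537_s_at, had 6.34, 5.08 and 4.31 with gradient, 4.02, 4.43 and 4.13 without gradient, and 4.87, 4.41 and 4.05 fresh. Replicate 1 with gradient was highest and the conditions overlapped. The dim probe set 11758696_x_at had 3.75, 3.69 and 3.51 with gradient, 3.51, 3.64 and 3.38 without gradient, and 3.86, 4.04 and 3.76 fresh, so that every thawed array was below every fresh array, as for HBB but by less. Probe set 11758698_x_at, also dim, had 3.03, 3.10 and 2.68 with gradient, 2.59, 3.45 and 2.51 without gradient, and 4.08, 3.63 and 3.004 fresh. Over the 5 probe sets the difference from fresh ran from -0.63 to 0.81 with gradient, 3 of them above 0, and from -0.72 to -0.17 without gradient.

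AHSP, ALAS2, CA1 and SLC4A1 differed less from the fresh arrays. AHSP had 4.99, 4.94 and 4.67 with gradient, 4.36, 4.68 and 4.32 without gradient, and 4.64, 4.97 and 5.09 fresh. ALAS2 (11758412_s_at) had 6.80, 6.13 and 6.49 with gradient, 6.17, 5.99 and 5.89 without gradient, and 6.18, 6.02 and 5.92 fresh. For both of these probe sets the conditions overlapped. ALAS2 11738208_a_at had 4.19, 4.42 and 4.16 without gradient, all below its fresh values of 4.70, 4.70 and 4.45, while ALAS2 11734745_a_at overlapped. CA1 (11729583_x_at) had 5.55, 4.83 and 4.59 with gradient, 4.05, 4.23 and 3.97 without gradient, and 4.64, 4.43 and 4.65 fresh. SLC4A1 (11726489_at) had 6.66, 6.51 and 6.001 with gradient, 5.70, 5.87 and 5.73 without gradient, and 6.05, 5.95 and 5.73 fresh. For this CA1 probe set the arrays without gradient lay below all others. For this SLC4A1 probe set they lay below those with gradient but overlapped the fresh arrays. Over all 11 probe sets of these 4 genes, differences from fresh ran from -0.22 to 0.48 with gradient and from -0.49 to -0.02 without gradient, against -2.15 to -1.62 with gradient and -3.97 to -2.06 without gradient for HBB.

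**Figure D2:**
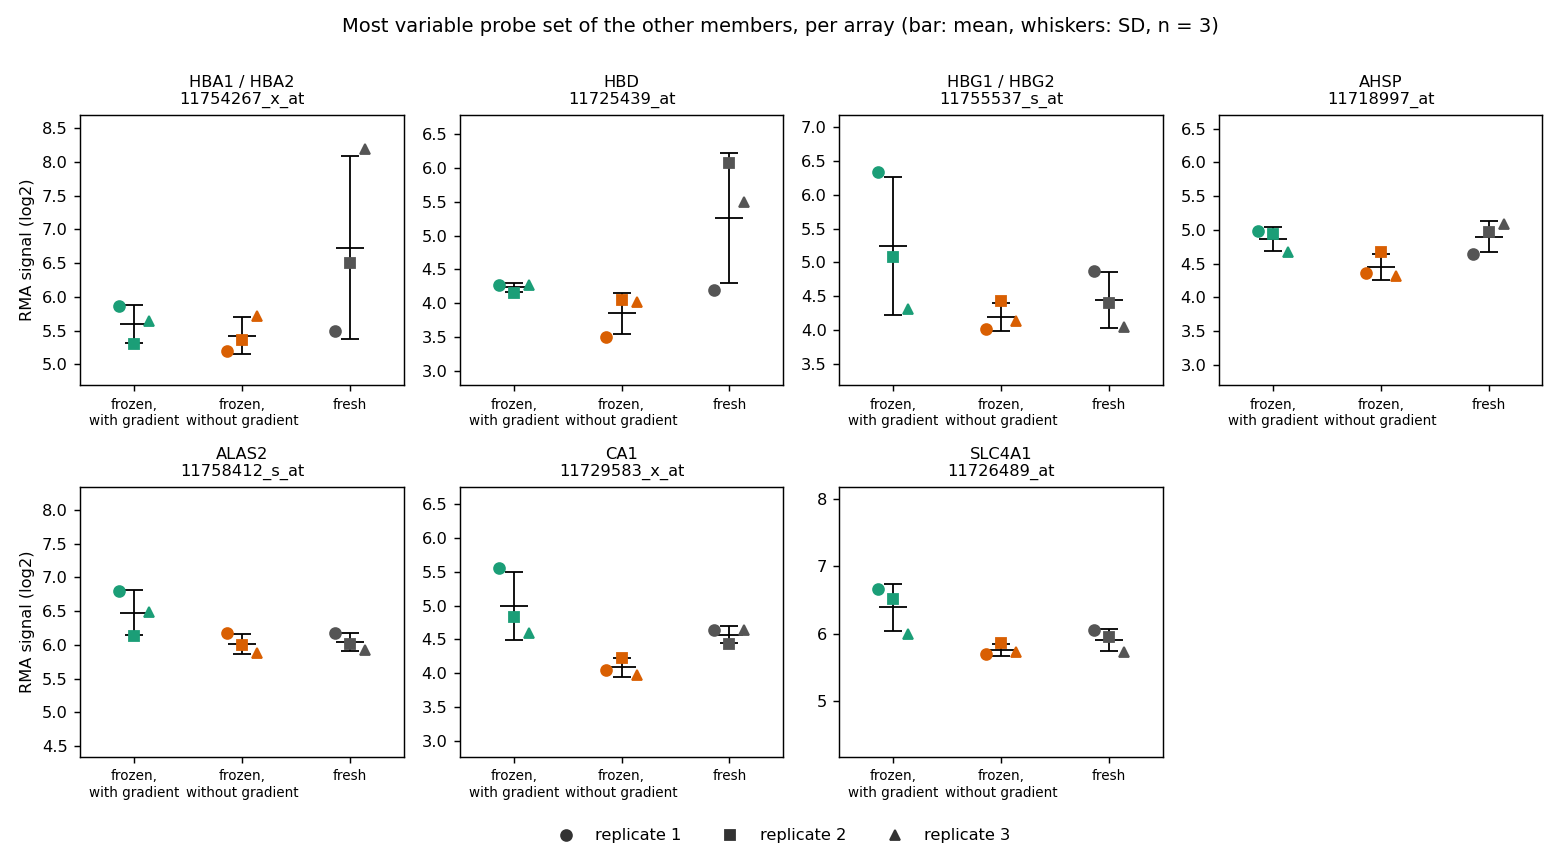
RMA signal (log2) of the most variable probe set of each other gene on each array, by condition, with a symbol per replicate, the mean as a bar and the SD as whiskers (n = 3). HBD and HBA1/HBA2 are high on 2 of 3 fresh arrays, while HBG1/HBG2, CA1, ALAS2 and SLC4A1 are highest on replicate 1 frozen with gradient.

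Counted by a criterion of unadjusted p under 0.05 with an absolute log2 difference over 1, the 22 probe sets had 4 lower with gradient than fresh (the 3 of HBB, and HBD 11725439_at) and none higher. Over all probe sets 0.0609% passed in this comparison, 0.0325% lower and 0.0284% higher. Without gradient, 5 were lower than fresh (the same 4 and HBA1/HBA2), where 1.55% of all probe sets passed, 0.144% lower and 1.4% higher. Nothing is read from these counts, because the genes were chosen on these comparisons. Of the 22 probe sets, 4 with gradient lay wholly below the fresh arrays and none wholly above, where 3.72% of all probe sets lay below and 4.06% above. Without gradient 13 lay wholly below and none above, where 13.3% of all probe sets lay below and 9.81% above. The median difference of the 22 was -0.02 with gradient (12 below 0) and -0.37 without gradient (all 22 below 0), beside medians of 0.01 and -0.06 over all probe sets in that order. Of all 49293 probe sets, 23801 lay below 0 with gradient and 29990 without gradient. Under the GAPDH covariate 15 of 22 stayed below 0 without gradient, with a median of -0.23, beside 0.02 over all probe sets.

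The comparison of the 2 thawed conditions was not used to choose the genes, although it shares their arrays. By the labels it asks what the additional density gradient adds when freezing and thawing are the same, and its direction rests on those labels. Of the 22 probe sets, 21 had a higher mean with gradient than without, as had 30643 of all 49293. Among those with a mean signal from 4 to 5, 7487 of 9595 had. The median log2 difference of the 22 was 0.42, beside 0.10 over all probe sets and 0.20 over those from 4 to 5. With the GAPDH covariate 18 of the 22 were higher, with a median of 0.13 (0.003 over all probe sets). After cyclic loess normalization 17 of the 22 were higher, with a median of 0.24 (-0.003 over all probe sets). None of the 22 passed a Benjamini-Hochberg adjusted p of 0.05 in limma, and none of all 49293 did, while 7 of the 22 and 9350 of all (19%) had an unadjusted p under 0.05. By the criterion, 1 of the 22 was higher with gradient, HBG1/HBG2 11755537_s_at, where 2.74% of all probe sets passed, 0.0893% higher and 2.65% lower. Arrays with the same replicate number deviated together between the thawed conditions, and with that number as a block 2 of the 22 were higher, HBB 11715347_s_at and HBG1/HBG2 11755537_s_at, where 4.35% of all passed, 0.116% higher and 4.23% lower. Of the 22, 8 lay wholly above the arrays without gradient and none wholly below, where 17.4% of all probe sets lay above and 13.1% below.

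HBB 11715347_s_at differed between the thawed conditions by 1.88 on the log2 scale (SE 0.91, limma adjusted p = 0.276), a fold of 3.69 with a 95% interval from 0.882 to 15.4. Its lowest array with gradient and its highest array without gradient were both at 9.33 when rounded. Without replicate 1 of the condition without gradient the difference was 0.72. The other HBB probe sets differed by 0.55 (SE 0.65, limma adjusted p = 0.587) and 0.44 (SE 0.51, limma adjusted p = 0.581). Within replicate numbers, 11715347_s_at was higher with than without gradient in 3 of 3 pairs, by 3.74, 0.64 and 1.27. With the replicate number as a block its difference had an SE of 0.52 and passed the criterion, which uses the p before adjustment (limma adjusted p = 0.0839). The call for HBB between the thawed conditions thus depended on the block, and without it the interval included both no difference and a large one.

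HBG1/HBG2 11755537_s_at differed by 1.05 (SE 0.45, limma adjusted p = 0.262). Replicate 1 with gradient set much of its size, since the difference was 0.50 without that array. With the GAPDH covariate it was 0.08. Within replicate numbers this probe set was higher with than without gradient in each pair, by 2.32, 0.65 and 0.18. It passed the criterion in 1 of 9 single omissions. CA1 11729583_x_at differed by 0.91 (SE 0.23, limma adjusted p = 0.253) and HBD 11725438_a_at by 0.82 (SE 0.22, limma adjusted p = 0.253), both with every array with gradient above every array without. The difference for SLC4A1 11726489_at was 0.62 (SE 0.18, limma adjusted p = 0.253), again with no overlap. For HBD 11725439_at it was 0.38 (SE 0.41, limma adjusted p = 0.543) and for HBA1/HBA2 0.17 (SE 0.56, limma adjusted p = 0.847). AHSP differed by 0.42 (SE 0.16, limma adjusted p = 0.254) and ALAS2 11758412_s_at by 0.46 (SE 0.18, limma adjusted p = 0.253).

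**Figure D3:**
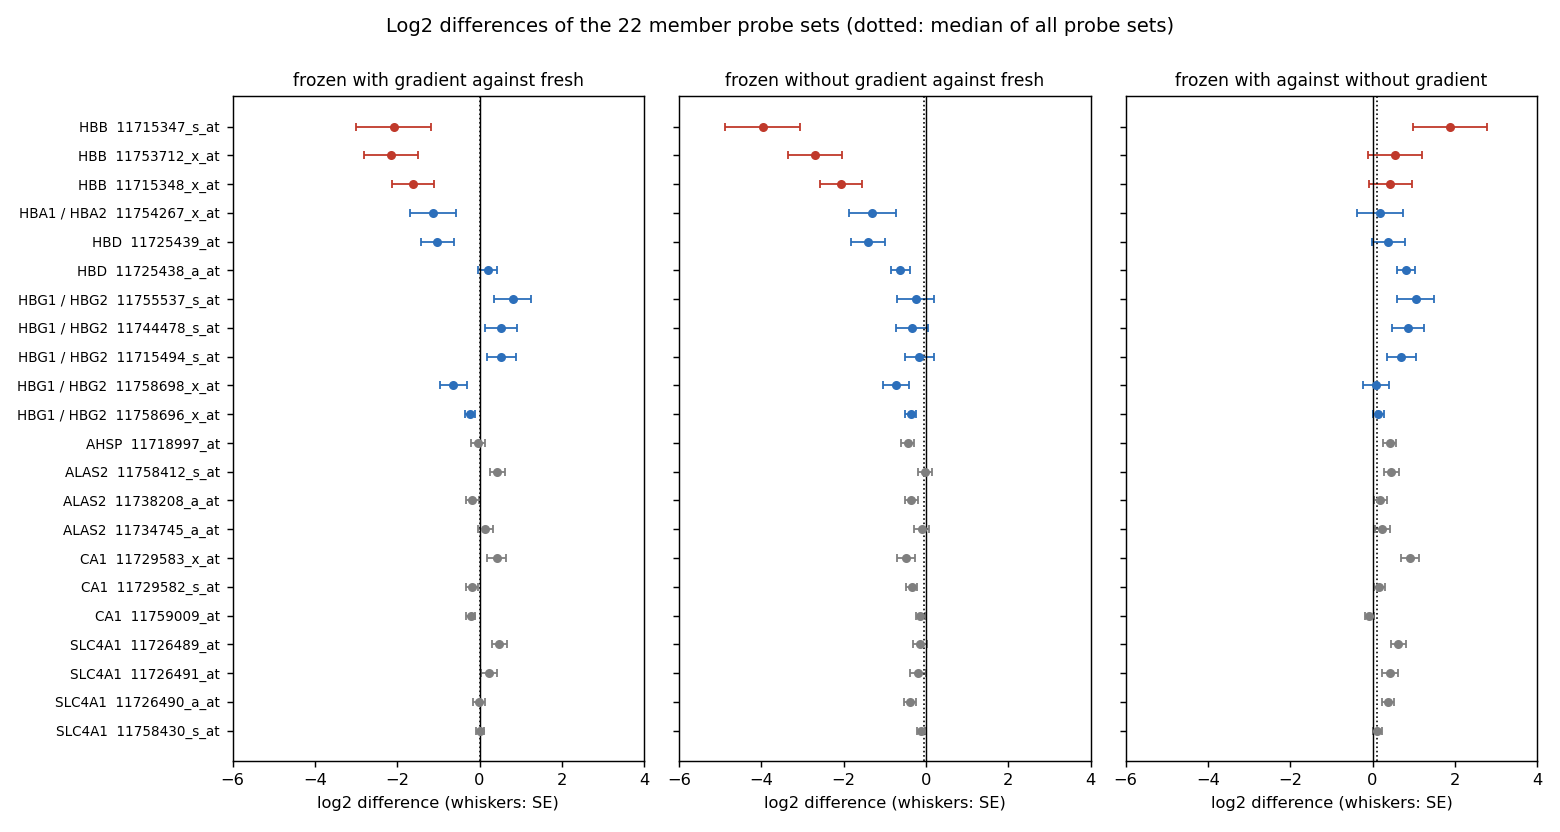
Log2 differences of the 22 probe sets with standard errors as whiskers in the 3 comparisons, with HBB in red, the other globin genes in blue, AHSP, ALAS2, CA1 and SLC4A1 in grey, and a dotted line at the median of all probe sets. HBB lies farthest below 0 against fresh, at -3.97 for 11715347_s_at without gradient. Between the thawed conditions 21 of 22 probe sets lie above 0, as do 30643 of all 49293.

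**Figure D4:**
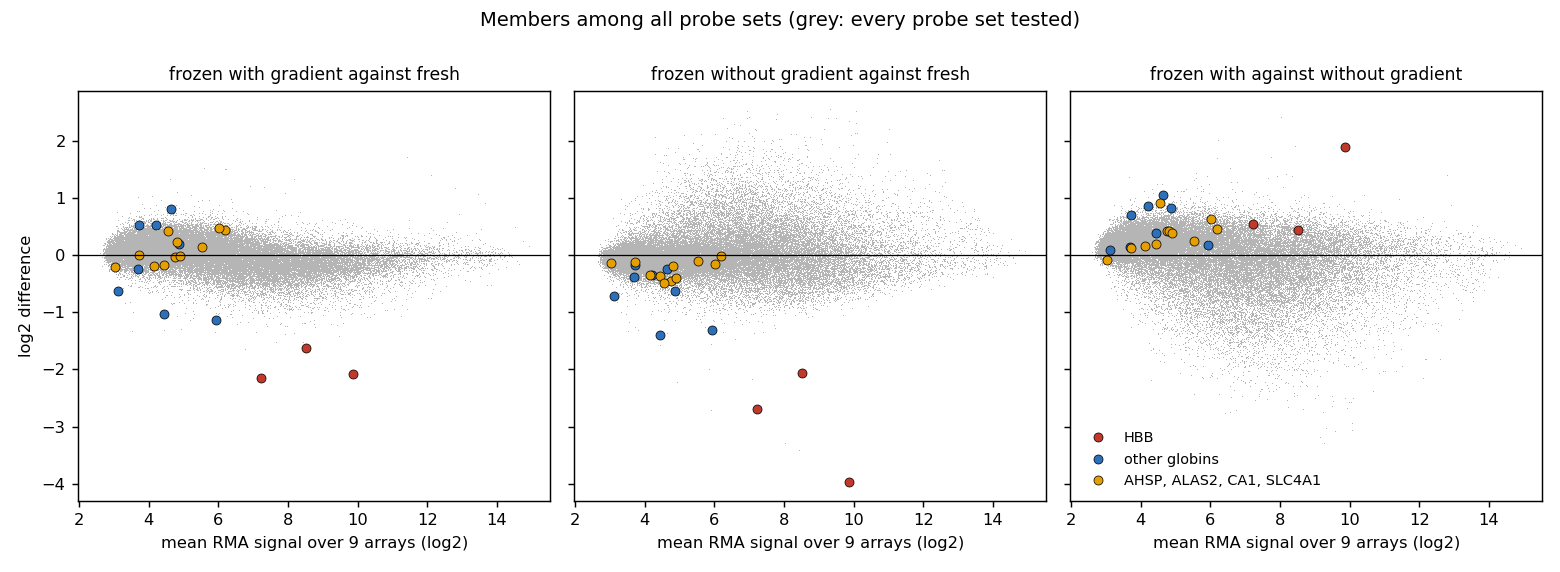
Log2 difference against mean RMA signal over the 9 arrays for all 49293 probe sets (grey) and the 22 of the hemoglobin and red cell genes (coloured). HBB lies at the lower edge of all probe sets against fresh, and most of the 22 have a mean signal under 6.

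Of the 22 probe sets, 10 had their highest value on replicate 1 frozen with gradient, the array that stood apart, and so did 35.6% of all probe sets and 53.7% of those with a mean signal from 4 to 5. Without it, 21 of 22 differences between the thawed conditions were still above 0, with a median of 0.29, beside 0.04 over all probe sets. HBB 11715347_s_at then differed by -1.85 from fresh and by 2.12 from the condition without gradient. The part of labelling or RNA quality in the values of the dim probe sets was not tested.

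Similarity to HBB among the members followed the globin and non-globin split only in part. Over the 9 arrays, which share 1 normalization and 3 conditions, the Pearson correlation with HBB 11715347_s_at was 0.84 for HBD 11725439_at, 0.74 for AHSP and 0.71 for HBA1/HBA2. After removal of each condition's mean these were 0.61, 0.48 and 0.47. For the most variable probe sets of CA1, SLC4A1, HBG1/HBG2 and ALAS2 it was 0.31, 0.09, 0.03 and -0.19. Other probe sets of the same genes gave other values. It was 0.67 for HBG1/HBG2 11758696_x_at and 0.58 for ALAS2 11738208_a_at, above the 0.48 of HBD 11725438_a_at, and after removal of the condition means these were -0.04, 0.04 and -0.002.

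Among 3746 symbol entries whose most variable probe set had an SD of at least 0.5 over the 9 arrays, HBD ranked 6th in likeness to HBB and HBA1/HBA2 35th. These ranks, and those below, include the difference between fresh and thawed arrays on which HBB was chosen. No ranks were computed after removal of the condition means. Outside the members and the lists of pathway and marker genes, the 10 most alike were SELENOP, MED18, CTHRC1, ABCA10, LSM8/NAA38, ZMYM6, CILK1, ZBTB14, APPBP2 and NXPH2, with correlations from 0.797 to 0.954 over 9 arrays. SELENOP, a secreted selenium carrier, had 5.27, 6.45 and 5.65 with gradient, 3.93, 5.76 and 4.98 without gradient, and 6.23, 7.31 and 7.13 fresh. MED18, a subunit of the Mediator complex, had 6.01, 6.93 and 7.10 with gradient, 5.48, 6.75 and 6.46 without gradient, and 7.10, 7.93 and 7.33 fresh. Both were lowest on replicate 1 without gradient, as HBB was. Of the marker genes, the neutrophil defensins DEFA1/DEFA3/DEFA1B ranked 9th and C1QB, a complement component of macrophages, 19th.

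The other genes of the red cell program were read from lists, with the most variable probe set per symbol entry. Their counts by the criterion stand beside those over all 19255 entries, of which 0.0519% were higher and 0.0623% lower with gradient than fresh, 2.23% higher and 0.296% lower without gradient than fresh, and 0.166% higher and 4.24% lower with than without gradient. Calls of list genes with the replicate block, here and among the markers below, stand beside 0.116% higher and 4.23% lower over all probe sets. Shares over symbol entries were not computed with the block. With the GAPDH covariate, the count of all probe sets lower with than without gradient went from 1307 to 87. The count higher without gradient than fresh went from 691 to 64. As the covariate was lowest on all arrays without gradient, adjusting for it can also remove differences of that condition. The calls of list genes, here and among the markers below, were not rerun with that covariate. Of 7 other globin genes (HBE1, HBZ, HBM, HBQ1, MB, CYGB and NGB), none passed in any comparison. HBQ1, which encodes theta globin, had 9.38, 8.24 and 7.13 with gradient, 8.19, 8.10 and 6.75 without gradient, and 9.36, 8.59 and 7.41 fresh. It differed between replicates more than between conditions, and replicate 3 was the lowest in each condition, whereas HBB was lowest in replicate 1. HBM, the mu globin, had 6.06, 5.59 and 5.39 with gradient, 5.17, 5.59 and 5.23 without gradient, and 6.08, 6.04 and 5.81 fresh.

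None of 19 genes of the red cell membrane and skeleton and none of 13 erythroid transcription factors passed the criterion in any of the 3 comparisons, although with the replicate block 2 of the transcription factors, FOXO3 and GATA2, passed as lower with than without gradient. Their median differences from fresh were 0.03 and 0.04 with gradient and -0.13 and -0.07 without gradient, in that order of lists. Of 16 genes of heme synthesis and handling, none passed against fresh in either thawed condition. Between the thawed conditions 2 passed, both lower with gradient. UROD, uroporphyrinogen decarboxylase, had 4.66, 6.41 and 7.03 with gradient against 7.53, 7.23 and 7.76 without (log2 difference -1.47, SE 0.57, limma adjusted p = 0.253). ALAS1, which catalyses the same step as ALAS2 in most tissues, had 6.996, 7.98 and 8.38 with gradient against 9.23, 8.90 and 8.82 without (log2 difference -1.20, SE 0.36, limma adjusted p = 0.253). With the replicate block 3 passed, the same genes and SLC25A37.

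Of 17 red cell enzymes and maturation genes, PRDX2 and BNIP3L passed as higher without gradient than fresh, and PRDX2, BNIP3L and HBS1L as lower with than without gradient. PRDX2, a peroxiredoxin of red cells that many other cells make too, had 6.64, 8.37 and 9.13 with gradient, 9.87, 9.70 and 10.18 without gradient, and 7.03, 7.89 and 9.36 fresh. Without gradient it was above all fresh arrays, while HBB was below them. BNIP3L, which takes part in the removal of mitochondria, had 6.003, 7.81 and 8.13 with gradient, 9.09, 8.70 and 8.96 without gradient, and 6.55, 6.76 and 8.36 fresh. HBS1L here, and MMP9, C1QB, ISL1, TH and STMN2 among the markers, fall outside the rule for named genes and were named after their values were seen.

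Markers of other marrow cells moved in part with HBB. Of 23 neutrophil entries, 8 were lower without gradient than fresh by the criterion (median difference -0.71), and 1, MMP9, was lower with gradient than fresh (median -0.18). S100A8, a calgranulin of neutrophils and monocytes, had 8.57, 9.91 and 7.20 with gradient, 6.43, 8.01 and 5.56 without gradient, and 11.80, 9.29 and 9.20 fresh. DEFA1/DEFA3/DEFA1B had 8.35, 7.59 and 9.61 with gradient, 4.82, 6.95 and 6.58 without gradient, and 10.03, 9.46 and 8.80 fresh, and was higher with than without gradient (log2 difference 2.40, SE 0.65, limma adjusted p = 0.253). With the replicate block S100A8 and S100A12 passed too, both higher with gradient. Summed over the neutrophil list on the linear scale, the log2 signal ran from 10.46 to 10.99 with gradient, from 8.99 to 9.86 without gradient and from 10.78 to 12.69 fresh. It was highest on fresh replicate 1, the fresh array with the lowest HBB.

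The other lists showed smaller differences. The summed signal of 16 monocyte and macrophage genes ran from 9.63 to 11.37 with gradient, from 9.24 to 10.22 without gradient and from 9.49 to 10.33 fresh. By the criterion, VCAN was higher and C1QB lower without gradient than fresh, and VCAN was lower with than without gradient. For 13 platelet genes the summed signal ran from 9.69 to 10.36 with gradient, from 9.12 to 9.62 without gradient and from 9.13 to 9.83 fresh, and GNG11 was higher with than without gradient, as were PF4 and PPBP with the replicate block. LYZ was higher with than without gradient under that block. For the 19 red cell membrane genes the summed signal overlapped between all 3 conditions, from 9.65 to 10.33 with gradient, from 9.57 to 10.03 without gradient and from 9.68 to 10.22 fresh. A sum on the linear scale follows its brightest entries, such as TMOD1 (6.66 to 8.35 over the 9 arrays). Dim entries such as XK (3.84 to 5.07) add little, so the overlap does not show their course. None of 14 T and NK cell, 13 B and plasma cell or 8 stem and progenitor cell entries passed in any comparison, with or without the block between the thawed conditions.

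The summed signal of 16 neuroblastoma markers ran from 13.59 to 14.03 with gradient, from 14.14 to 14.76 without gradient and from 13.99 to 14.12 fresh. Without gradient every array was above every fresh array and every array with gradient, in the opposite direction to HBB. The arrays without gradient also had the smallest GAPDH 3′ minus 5′ differences, and the part of labelling or RNA quality in this order was not tested. HAND2 and TH were higher without gradient than fresh, and MYCN, HAND2, ISL1 and TH lower with than without gradient, by the criterion. With the replicate block GATA3 and STMN2 were lower too, 6 of 16 in all, where 4.23% of all probe sets were lower. RMA signals have no true zero, so absence of a marker cannot be read from them. The part of these other cells, or of the share of LAN-1 RNA, in the HBB differences was not tested.

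**Figure D5:**
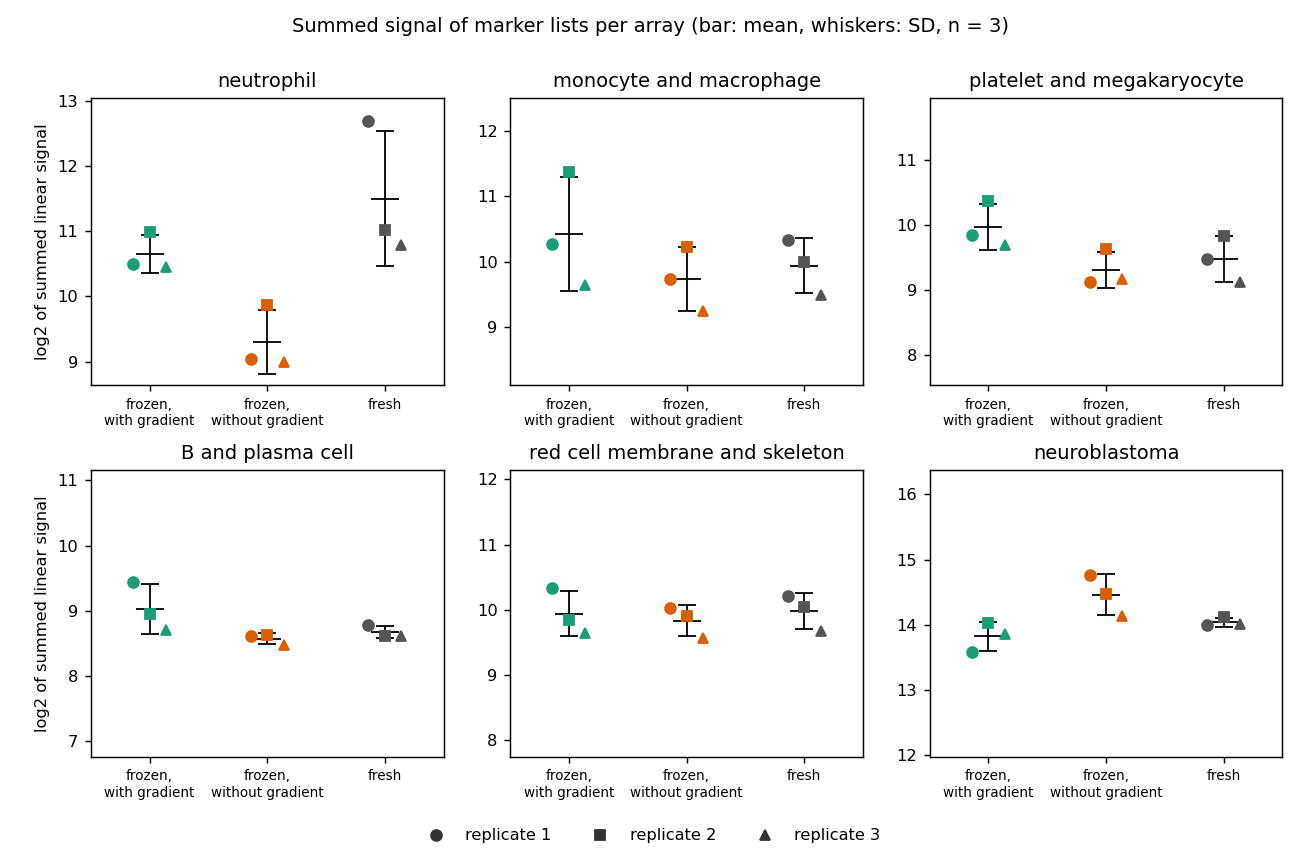
Log2 of the summed linear signal of 6 marker lists on each array, by condition, with a symbol per replicate, the mean as a bar and the SD as whiskers (n = 3). Neutrophil markers are lowest without gradient (8.99 to 9.86), the red cell membrane list overlaps between conditions, and neuroblastoma markers are highest without gradient (14.14 to 14.76). Each sum mainly follows the brightest genes of its list.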

How the data were processed

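RNA from 9 samples was hybridized to 1 PrimeView array each. The deposited values are log2 signals from RMA (background correction, quantile normalization and probe summary), run by the authors, and were used unchanged. Raw intensities were not used here. The table held 49395 probe sets, of which 102 controls were left out. Probes were named through the platform annotation (45064 probe sets with 1 symbol, 1756 with several, 2473 with none).

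All 49293 probe sets were fitted with 3 condition means and no covariate in limma 3.58.1 (R 4.3.3), with Benjamini-Hochberg adjustment over all of them. A probe set passed the criterion with a p under 0.05 before adjustment and a log2 difference beyond 1 in either direction. The methods state the most variable probe set per gene, which was an alternative here because the members were defined as all probe sets. The procedure was tested on simulated arrays. Deviations of arrays with the same replicate number from their condition means correlated from 0.18 to 0.456 between the thawed conditions, from 0.0347 to 0.755 between with gradient and fresh, and from 0.0632 to 0.495 between without gradient and fresh. As every pair exceeded 0.1 only between the thawed conditions, blocked values are given there where they change a call. The pairing is read from the data, since the labels give only the numbers. The study describes 3 biological replicates, each under the 3 conditions, but does not tie them to these numbers. A low correlation does not show that arrays were unpaired. If the numbers mark those replicates, the standard errors and intervals without the block leave out a pairing of the design.

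The members, the 12 lists of related and marker genes and the settings were chosen with earlier results of these data known. Of each symbol entry the most variable probe set was described in full. Of each list up to 4 genes with the largest SD could be named, together with the 10 symbol entries most correlated with HBB. Some genes of these lists are not reported here. Other settings were the probe set per entry, scaling, filters on dim probe sets, variance models, array weights, the replicate block, labelling or RNA quality by GAPDH, and omission of each array. The number of arrays, 3 per condition, limits the precision.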

Additional observations from a re-analysis of the deposited data

How the results depend on the processing

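HBB kept its direction against fresh in both thawed conditions and for all 3 probe sets under every setting run. Because the gene was chosen on these differences, this is no support for them. Of the probe sets with gradient against fresh, 4 passed as reported, 2 with the most variable probe set per entry, 1 with the highest mean, 1 with the mean of all probe sets, 2 with a mean signal of at least 5 and 2 with one at or above the median, and 2 to 5 when arrays were left out singly. Without gradient against fresh the counts were 5 as reported, and 3, 2, 3, 3 and 3 under the same settings, and 3 to 5 over single omissions. With against without gradient, no probe set passed (0, against 1 as reported) with the mean of all probe sets, cyclic loess, both filters on signal, array weights, only the 6 arrays compared, and without the 2 arrays of lowest GAPDH 5′ signal. Under quantile normalization and the GAPDH covariate the HBG1/HBG2 call was lost as well, and the 1 probe set that passed was HBB 11715347_s_at. The count ranged from 0 to 4 over single omissions, with 4 when replicate 3 with gradient was left out. Fewer probe sets per gene, or their removal by the filter, lowers such counts by construction, and for the other settings the cause was not tested.

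Followed by probe set over these settings, the direction turned at least once for 8 of the 22 probe sets between the thawed conditions, 6 with gradient against fresh and 7 without gradient against fresh, all with a reported difference of at most 0.70 in size. Between the thawed conditions HBA1/HBA2 was at -0.067 with array weights and HBB 11753712_x_at at -0.05 without replicate 1 of the condition without gradient. With the GAPDH covariate HBG1/HBG2 11755537_s_at was at 0.53 without gradient against fresh. With gradient against fresh, HBD was at 0.19 where the brightest probe set stood for the gene. HBB 11715347_s_at passed the criterion with against without gradient under quantile normalization (2.05), with the GAPDH covariate (2.61) and without replicate 2 of the condition without gradient (2.59).

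With the replicate block, 5 probe sets with gradient and 5 without gradient passed against fresh, where arrays of the same number did not deviate together in every pair. Between the thawed conditions, where they did, 2 passed (1 without the block), and the block changed no call of the 22 there other than that of HBB 11715347_s_at.

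Over all probe sets, the count with gradient against fresh ran from 20 to 303 over single omissions and from 6 to 105 over the other settings (30 as reported). Without gradient against fresh it ran from 154 to 2434 and from 98 to 1649 (762 as reported), and with against without gradient from 347 to 3465 and from 135 to 2144 (1351 as reported). The lowest and highest single omissions were fresh replicates 1 and 3 for the condition without gradient, and replicates 1 and 3 with gradient for the other comparisons. With the GAPDH covariate 20.1% of the probe sets passing without gradient against fresh were higher, where 90.7% were as reported. Array weights gave 6914 adjusted calls with gradient and 14144 without gradient against fresh, and 10504 between the thawed conditions, where the reported fit gave 0 in each. The weights were estimated gene by gene and were extreme, so nothing is read from these calls. Signal near background limits the dim probe sets, since 15 of the 22 had a mean signal under 5.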
